A study of Mus musculus with 6 samples.

Results

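The genes described here are 10 genes of systemic and cellular iron handling, taken by symbol from the deposited table of mouse liver RNA levels, which holds 55414 annotated genes. They are the hepcidin genes Hamp and Hamp2, the plasma iron carrier transferrin (Trf), the transferrin receptors Tfrc and Tfr2, the iron exporter ferroportin (Slc40a1), the ferritin subunits Fth1 and Ftl1, the hepcidin-inducing ligand Bmp6 and the BMP target gene Id1. All 10 were found in the table, and all 10 passed the filter on low values that left 11134 genes for testing. The study measured RNA in the livers of 12-week-old male mice that had been fasted for 16 h, in 3 groups of 2 libraries. GapAlb KO mice, which lack the glycolytic enzyme GAPDH in hepatocytes, drank water with 5% serine or drank plain water. Control mice of genotype Gapfl, which by its name carries the floxed gene, drank plain water. Each library was made from the pooled RNA of 2 mice, so the spread between libraries is a spread between pools. A control group on serine was not analysed here, so serine can be compared only within KO mice, and the comparison of KO mice on serine with control mice changes genotype and drink together. The labels do not name the promoter of the recombinase, and cells of the liver other than hepatocytes are outside the stated deletion.

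Hepcidin is a peptide hormone that hepatocytes secrete when iron stores are high or during inflammation. It binds ferroportin on gut cells, macrophages and hepatocytes and causes its degradation, which lowers the release of iron into plasma. Transcription of Hamp is driven by BMP6 from sinusoidal endothelial cells through BMP receptors, hemojuvelin and SMAD proteins, by interleukin-6 through STAT3 and, in fasted mice, by the gluconeogenic regulators CREB3L3 and PPARGC1A. Inside cells, iron regulatory proteins bind stem-loops in the mRNAs of ferritin, ferroportin and Tfrc and set translation or mRNA stability to the iron supply, so mRNA level and protein level can part for these genes.

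The promoters of both hepcidin genes are shown because both genes lie side by side on chromosome 7, are close copies of each other, and were the members furthest above the controls. The 250 bases before each annotated start are given 5′ to 3′ on the gene's strand, from RefSeq on GRCm38.p6, at chr7:30944030-30944279 for Hamp and chr7:30924182-30924431 for Hamp2, both on the minus strand. Capitals mark the core hexamer of the BMP-responsive element, or the aligned hexamer in Hamp2, and after it the STAT site.
Hamp: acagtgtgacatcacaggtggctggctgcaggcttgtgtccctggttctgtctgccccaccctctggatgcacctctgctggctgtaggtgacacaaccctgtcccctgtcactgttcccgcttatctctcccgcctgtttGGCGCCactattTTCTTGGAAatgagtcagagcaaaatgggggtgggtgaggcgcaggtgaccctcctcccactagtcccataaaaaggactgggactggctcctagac
Hamp2: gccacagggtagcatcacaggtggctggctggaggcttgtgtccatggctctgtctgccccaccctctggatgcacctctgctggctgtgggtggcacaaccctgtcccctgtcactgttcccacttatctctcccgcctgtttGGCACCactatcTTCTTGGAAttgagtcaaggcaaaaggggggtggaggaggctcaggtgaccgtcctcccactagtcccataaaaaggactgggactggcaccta
Over 247 aligned bases the windows were identical at 227, or 91.9%, with 20 differences. The hexamer GGCGCC stood at -109 from the start of Hamp, and the aligned Hamp2 hexamer at -106 carried the substitution G4A, counted from 1 at the 5′ end of the hexamer. TTCTTGGAA, a match to the STAT motif TTCNNNGAA, was present in both, at -97 in Hamp and -94 in Hamp2. Among 32851 RefSeq promoter windows of 300 bases, which run from 250 before to 50 after a start, 11.9% held GGCGCC and 8.30% held TTCNNNGAA on either strand. Windows were found for 7 of the 10 members, all except Trf, Slc40a1 and Id1. Tfrc held GGCGCC at -89 and Bmp6 held the E-box CACGTG, present in 7.15% of windows, at -127. The iron-responsive element core CNNNNNCAGTG, searched on the sense strand in the last 50 bases and present in 1.58% of windows, matched at +31 in 1 of the 3 windows of Tfr2. The windows of Fth1, Ftl1 and Tfrc held no match to this core, and bases further into the transcripts were not searched. None of the matches found overlapped another. A match describes letters only, and no factor's binding was measured.

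The 6 libraries carried an estimated 17.3 M to 19.25 M fragments (M, 1e6), with 8.89% to 12.6% of the FPKM total from mitochondrial genes. FPKM scales the fragments of a gene to transcript length and library size. Gapdh, the deleted gene, stood at 20.0 and 23.5 FPKM in KO mice on serine and at 23.8 and 17.0 FPKM in KO mice on water, against 1091 and 1391 FPKM in control mice, so each library matched its genotype label. Each change below is a difference of log2(FPKM + 0.5) from limma, with its moderated standard error (SE) and a p-value adjusted over 11134 genes, and a gene is said to rise or fall where that p-value was under 0.05. The median change of all genes was 0.08 for KO mice on water against control mice, 0.09 for KO mice on serine against KO mice on water and 0.16 for KO mice on serine against control mice. Scaling by median of ratios moved each of these to 0.00. The median of 0.16 was the largest, so changes in that comparison are also given less that median where the difference matters. Summed hepatocyte markers ranged from 76120 to 80360 FPKM in KO mice on serine, from 72240 to 87120 in KO mice on water and from 86740 to 89770 in control mice.

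Of the 10 members, only Hamp2 passed the test, higher in KO mice on water than in control mice and higher in KO mice on serine than in control mice. Over all genes, 1.21% were called in the first of these comparisons (0.808% higher and 0.404% lower) and 1.18% in the second (0.853% higher). At an unadjusted p under 0.05, 4 members passed in the first, against 21.6% of all genes, and 7 in the second, against 25.7% of all genes. The libraries of KO mice on water and control mice did not overlap for 7 of 10 members, 2 higher and 5 lower, against 55.4% of all genes (34.4% higher and 20.9% lower). KO mice on serine and control mice did not overlap for 9 of 10, 5 higher and 4 lower, against 57% of all genes (41.5% higher and 15.5% lower). Between KO mice on serine and KO mice on water limma called 0 of 10 members and 0% of all genes. At an unadjusted p under 0.05 it gave 2 of the 10 members there, Id1 and Ftl1, against 7.23% of all genes. Libraries of these groups did not overlap for 5 of 10 members, 4 higher and 1 lower, against 37.8% of all genes (26.9% higher). The median change of the members was 0.16 for KO mice on serine against control mice, -0.12 for KO mice on water against control mice and 0.23 for KO mice on serine against KO mice on water.

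**Figure D1:**
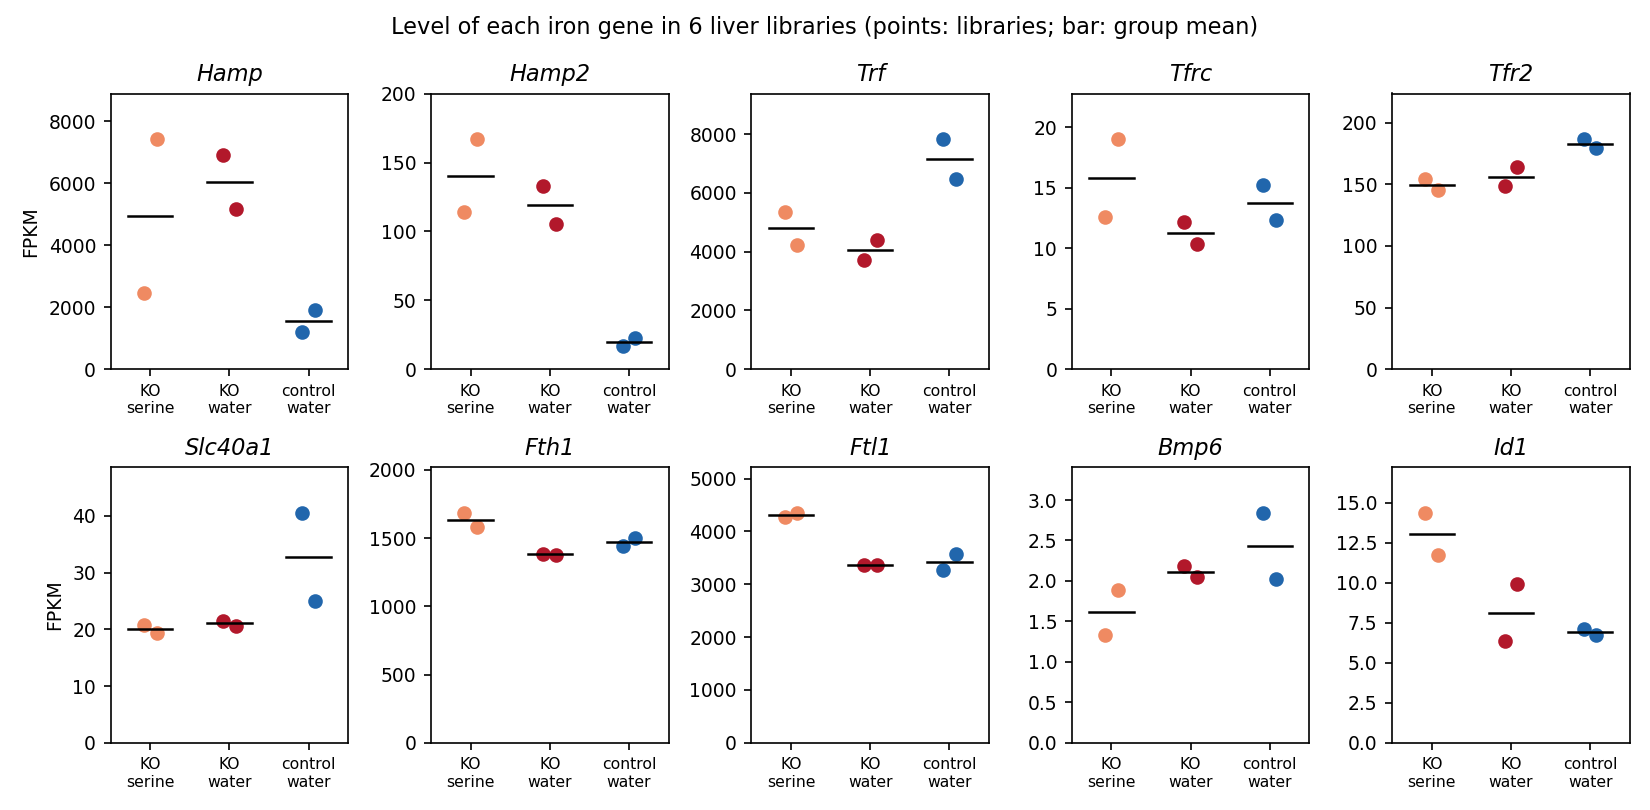
FPKM (vertical axes, linear, from 0) of the 10 iron genes in KO mice on serine, KO mice on water and control mice on water; each point is 1 library from a pool of 2 mice and each bar a group mean. Hamp and Hamp2 stand higher in all 4 KO libraries than in both control libraries, and Trf, Tfr2 and Slc40a1 stand lower in all 4 KO libraries.

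Hamp2, the second hepcidin gene of mice (ENSMUSG00000056978, chromosome 7, 30621797 to 30624106, minus strand, GRCm39), had 114 and 167 FPKM in KO mice on serine and 133 and 105 FPKM in KO mice on water, against 17.0 and 22.9 FPKM in control mice. Every KO library was above both control libraries, and the KO groups overlapped. Means were 141 ± 37.1 FPKM in KO mice on serine, 119 ± 20.0 FPKM in KO mice on water and 19.9 ± 4.22 FPKM in control mice (SD, n = 2 each), so the mean was 5.97-fold higher in KO mice on water and 7.04-fold higher in KO mice on serine than in control mice. The log2 change was 2.55 (SE 0.24, adjusted p = 0.0210) for KO mice on water against control mice. It was 2.78 (SE 0.24, adjusted p = 0.0248) for KO mice on serine against control mice, or 2.61 less the median of all genes. KO mice on serine differed from KO mice on water by 0.22 (SE 0.24, adjusted p = 0.855). The first call was lost when any 1 of the KO water or control libraries was left out, with log2 changes of 2.34 to 2.77 and adjusted p of 0.117 to 0.218. The call in KO mice on serine was lost without either KO water library (adjusted p = 0.0889 and 0.0906), without the second KO serine library (0.0709) and without either control library (0.221 and 0.131).

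Hamp, which encodes the circulating hormone (ENSMUSG00000050440, chromosome 7, 30641793 to 30643457, minus strand), had 2473 and 7418 FPKM in KO mice on serine and 6905 and 5180 FPKM in KO mice on water, against 1189 and 1920 FPKM in control mice. All KO libraries were above both control libraries, and the KO serine libraries lay below and above both KO water libraries. Hamp was the 51st and 11th highest gene by FPKM in KO mice on serine and the 12th and 22nd in KO mice on water, against the 91st and 64th in control mice. Means were 4946 ± 3497 FPKM in KO mice on serine, 6043 ± 1220 FPKM in KO mice on water and 1555 ± 517 FPKM in control mice (SD, n = 2 each). The log2 change was 1.98 (SE 0.51, adjusted p = 0.106) for KO mice on water and 1.50 (SE 0.51, adjusted p = 0.134) for KO mice on serine against control mice, and neither passed the threshold. KO mice on serine differed from KO mice on water by -0.48 (SE 0.51, adjusted p = 0.851). The values of KO mice on serine turned on which of their libraries was kept. Without the first one, the change from control mice was 2.29 (adjusted p = 0.0498) and the difference from KO mice on water turned to 0.31. Without the second one, the change from control mice was 0.71 (adjusted p = 0.376). For KO mice on water against control mice, the KO serine libraries enter only the estimate of the spread and cannot move the change of 1.98. With both of them left out of the fit it passed (limma, adjusted p = 0.0449). No setting that kept all 6 libraries passed. With a KO water or control library left out, the change ran from 1.64 to 2.33.

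**Figure D2:**
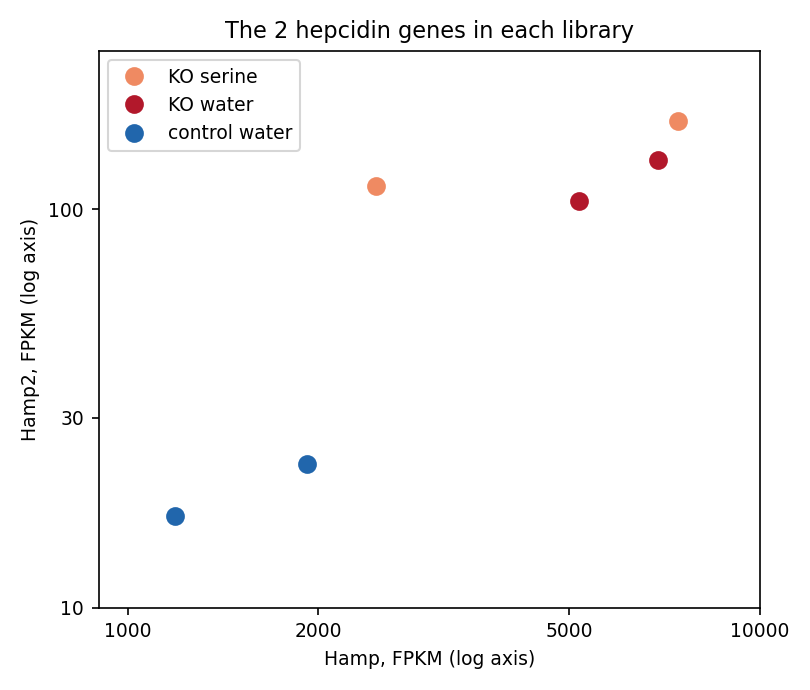
Hamp (horizontal axis) against Hamp2 (vertical axis) in FPKM, both on log axes, with 1 point for each of the 6 libraries. The control libraries lie at the lower left, at 17.0 and 22.9 FPKM of Hamp2, and the 4 KO libraries lie at 105 FPKM of Hamp2 or more, with 1 KO serine library at 2473 FPKM of Hamp.

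Both genes can share reads. Their longest GENCODE vM21 transcripts were 93.1% identical over 417 aligned columns, and 60 of the 50-base words, 11.2% of those in Hamp2 and 16.6% of those in Hamp, occurred in both. How the authors' counting treated such reads is not given in the sources used here. Hamp2 made up 4.42% and 2.20% of the summed hepcidin FPKM in KO mice on serine and 1.89% and 1.99% in KO mice on water, against 1.41% and 1.18% in control mice, so its share was higher in every KO library than in both control libraries. When both rows were summed, the log2 change was 1.99 (adjusted p = 0.102) in KO mice on water and 1.53 (adjusted p = 0.126) in KO mice on serine against control mice. The deposited values of short genes also fit a transcript length shortened by 291 to 319 bases, which leaves 91 to 119 of the 410 bases of Hamp, so its FPKM stands high beside that of longer genes. On the full length Hamp would stand at 615 and 1846 FPKM in KO mice on serine and at 1870 and 1352 FPKM in KO mice on water, against 264 and 557 FPKM in control mice. The share of Hamp2 in the summed hepcidins would then be 8.05% and 4.09% in KO mice on serine and 3.36% and 3.60% in KO mice on water, against 2.83% and 2.02% in control mice, with the KO libraries again above both control libraries. The calls on Hamp2 held on the full length, at 2.54 (adjusted p = 0.0302) in KO mice on water and 2.73 (adjusted p = 0.0342) in KO mice on serine against control mice. An estimated 584 and 793 fragments stood behind Hamp2 in KO mice on serine and 708 and 530 in KO mice on water, against 82 and 129 in control mice.

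Bmp6, the endothelial ligand that reports iron stores to hepatocytes (ENSMUSG00000039004, chromosome 13, 38529083 to 38684278, plus strand), was the lowest member, at 1.33 and 1.89 FPKM in KO mice on serine and 2.18 and 2.05 FPKM in KO mice on water, against 2.84 and 2.03 FPKM in control mice. Both KO serine libraries were below both control libraries, and KO mice on water overlapped control mice. Its log2 change was -0.48 (adjusted p = 0.302) in KO mice on serine and -0.15 (adjusted p = 0.770) in KO mice on water against control mice, and the value in KO mice on water turned to 0.047 without the first control library. Only 89 to 186 estimated fragments stood behind each of these values. In whole liver, fewer cells of a type and less RNA per cell cannot be told apart. Summed sinusoidal endothelial markers were 147 and 165 FPKM in KO mice on serine and 141 and 152 FPKM in KO mice on water, against 153 and 147 FPKM in control mice, with 0 of 10 called in any comparison.

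Id1, a transcriptional inhibitor that BMP signalling induces in hepatocytes (ENSMUSG00000042745, chromosome 2, 152578171 to 152579330, plus strand), had 14.4 and 11.7 FPKM in KO mice on serine and 6.35 and 9.91 FPKM in KO mice on water, against 7.11 and 6.73 FPKM in control mice. KO mice on serine were above both other groups, while KO mice on water lay below and above both control libraries. The log2 change was 0.86 (SE 0.23, adjusted p = 0.0918) for KO mice on serine against control mice, 0.68 (adjusted p = 0.675) against KO mice on water, and 0.19 (adjusted p = 0.676) for KO mice on water against control mice. The last value turned to -0.11 without the second KO water library. An estimated 102 to 228 fragments stood behind each value of Id1. Whether its level goes with that of the hepcidin genes was not tested.

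Transferrin (Trf, ENSMUSG00000032554, chromosome 9, 103081200 to 103107643, minus strand), the liver-made protein that carries iron in plasma, had 5351 and 4233 FPKM in KO mice on serine and 3723 and 4388 FPKM in KO mice on water, against 7816 and 6481 FPKM in control mice. All 4 KO libraries were below both control libraries, and the KO groups overlapped. The log2 change was -0.82 (SE 0.19, adjusted p = 0.0892) for KO mice on water and -0.58 (SE 0.19, adjusted p = 0.125) for KO mice on serine against control mice, or -0.74 less the median of all genes, and neither passed. Over 16 alternatives each, the changes ran between -0.95 and -0.68 in KO mice on water and between -0.76 and -0.41 in KO mice on serine, and none passed.

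Of the receptors for iron-loaded transferrin, Tfr2, the hepatocyte iron sensor that works with HFE (ENSMUSG00000029716, chromosome 5, 137568102 to 137585743, plus strand), had 154 and 145 FPKM in KO mice on serine and 148 and 164 FPKM in KO mice on water, against 186 and 180 FPKM in control mice. All 4 KO libraries were below both control libraries, with a log2 change of -0.29 (adjusted p = 0.192) in KO mice on serine and -0.23 (adjusted p = 0.327) in KO mice on water. Tfrc, the receptor of general iron uptake whose mRNA is stabilised in iron-poor cells (ENSMUSG00000022797, chromosome 16, 32427738 to 32451612, plus strand), had 12.6 and 19.0 FPKM in KO mice on serine and 12.2 and 10.3 FPKM in KO mice on water, against 15.2 and 12.3 FPKM in control mice. KO mice on serine overlapped control mice and stood above KO mice on water, which stood just below control mice. The log2 change of Tfrc was -0.28 (adjusted p = 0.529) for KO mice on water against control mice, 0.17 (adjusted p = 0.681) for KO mice on serine against control mice and 0.45 (adjusted p = 0.731) for KO mice on serine against KO mice on water. Its value against control mice in KO mice on serine became -0.0013 with median-of-ratios scaling and -0.12 without the second KO serine library. Tfrc is abundant in erythroid precursors, and the summed erythroid markers, which include the globins, were 1421 and 1362 FPKM in KO mice on serine and 736 and 1605 FPKM in KO mice on water, against 1166 and 1094 FPKM in control mice, with 0 called. Their part in the level of Tfrc was not tested. The level of Tfr2 was 12.2 and 7.63 times that of Tfrc in KO mice on serine and 12.2 and 15.9 times in KO mice on water, against 12.3 and 14.6 times in control mice, in FPKM per length.

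Ferroportin (Slc40a1, ENSMUSG00000025993, chromosome 1, 45947228 to 45965683, minus strand), the only known cellular iron exporter of mammals and the target of hepcidin, had 20.8 and 19.3 FPKM in KO mice on serine and 21.4 and 20.6 FPKM in KO mice on water, against 40.5 and 24.9 FPKM in control mice. The 4 KO libraries lay within 19.3 to 21.4 FPKM and below both control libraries, which were far apart. Its log2 change was -0.65 (SE 0.23, adjusted p = 0.141) in KO mice on serine and -0.58 (SE 0.23, adjusted p = 0.210) in KO mice on water against control mice. Without the first control library it was -0.31 in KO mice on serine and -0.24 in KO mice on water. Macrophages also carry ferroportin, and their summed markers were 147 and 155 FPKM in KO mice on serine and 153 and 127 FPKM in KO mice on water, against 150 and 126 FPKM in control mice. Within KO mice on serine the library with the higher marker sum had the lower ferroportin level, and within KO mice on water and within control mice it had the higher one. The part of these cells in the result was not tested.

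The ferritin subunits form the shell that stores iron. Ftl1, the light subunit (ENSMUSG00000050708, chromosome 7, 45107368 to 45109308, minus strand), had 4280 and 4351 FPKM in KO mice on serine and 3360 and 3372 FPKM in KO mice on water, against 3262 and 3582 FPKM in control mice. KO mice on serine were above all other libraries, and KO mice on water lay within the range of control mice. For Ftl1, KO mice on serine had a log2 change of 0.36 (SE 0.13, unadjusted p = 0.0323, adjusted p = 0.678) against KO mice on water and 0.34 (adjusted p = 0.175) against control mice, or 0.17 less the median of all genes. Fth1, the heavy subunit with the ferroxidase site (ENSMUSG00000024661, chromosome 19, 9957962 to 9962462, plus strand), had 1685 and 1578 FPKM in KO mice on serine and 1387 and 1375 FPKM in KO mice on water, against 1441 and 1502 FPKM in control mice. Here too KO mice on serine were highest, at 0.24 against KO mice on water (adjusted p = 0.729) and 0.15 against control mice (adjusted p = 0.478), a value that became -0.029 with median-of-ratios scaling. KO mice on water differed from control mice by -0.09 for Fth1 (adjusted p = 0.700) and -0.02 for Ftl1 (adjusted p = 0.937), the Ftl1 value becoming 0.065 when scaled to TPM. Ftl1 stood at 2.54 and 2.76 times Fth1 in KO mice on serine and at 2.42 and 2.45 times in KO mice on water, against 2.26 and 2.38 times in control mice. The pseudogene Ftl1-ps1 is 99.6% identical to Ftl1 in its transcript and was listed at 104 and 101 FPKM in KO mice on serine and 66.4 and 101 FPKM in KO mice on water, against 86.2 and 109 FPKM in control mice, so a small number of reads may be divided between them. The other 4 ferritin pseudogene rows were listed at 0 in all libraries.

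**Figure D3:**
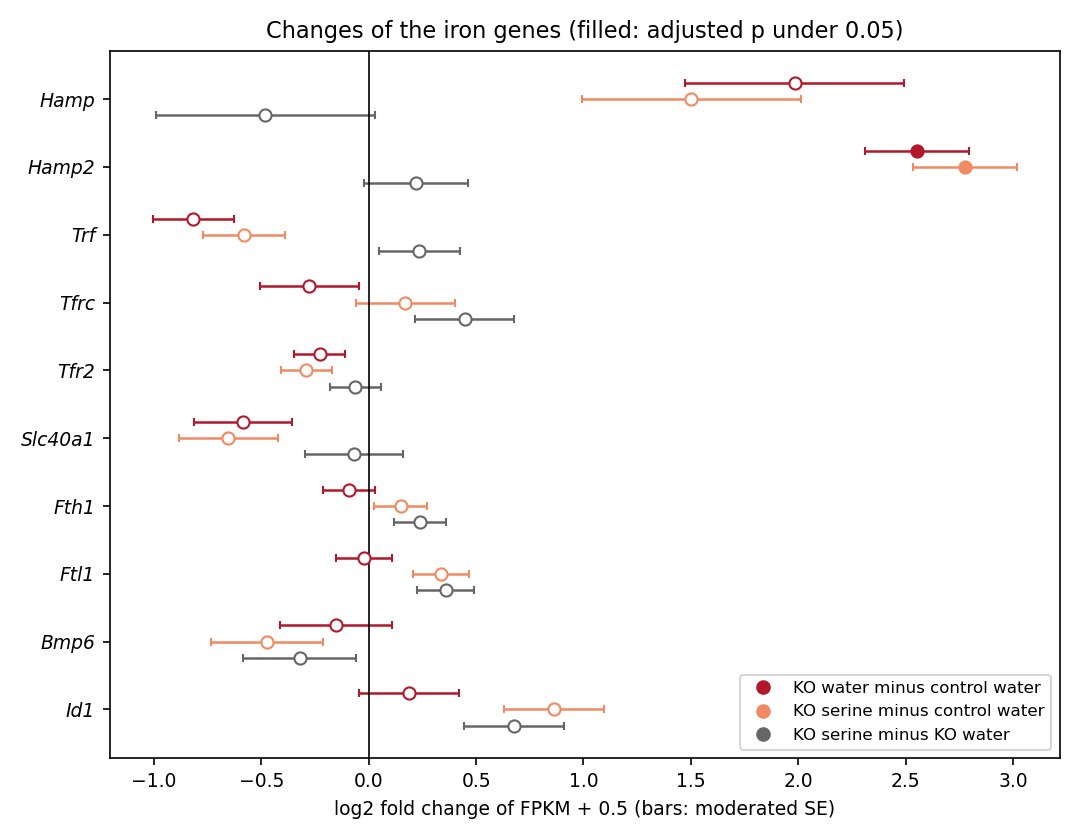
Change in log2(FPKM + 0.5) of each member (horizontal axis) with its moderated SE as a bar, for KO water minus control water, KO serine minus control water and KO serine minus KO water; filled points passed an adjusted p of 0.05. Only the points of Hamp2 against control mice, at 2.55 and 2.78, are filled, and those of Trf, Tfr2 and Slc40a1 against control mice lie left of 0.

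A further 78 genes of iron metabolism in 5 lists were read beside the members, of which 72 passed the filter on low values. The genes below it were Erfe, Bambi, Cybrd1, Heph, Slc22a17 and Ftmt. In KO mice on water 2 of the 72 rose and 0 fell against control mice, against 1.21% of all genes called in either direction, and in KO mice on serine 3 rose and 0 fell against control mice, against 1.18% of all genes. Between the KO groups limma called 0, with 7 at an unadjusted p under 0.05, against 7.23% of all genes.

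In the list of iron sensing and BMP-SMAD control, 20 of 22 genes were tested. Hfe, which encodes the membrane protein whose loss causes iron overload in humans and mice, had 38.6 and 53.0 FPKM in KO mice on serine and 32.4 and 33.5 FPKM in KO mice on water, against 20.0 and 20.1 FPKM in control mice. All KO libraries were above both control libraries and both serine libraries were above both KO water libraries. Hfe rose in KO mice on serine against control mice, by 1.15 (SE 0.17, adjusted p = 0.0454), and stood at 0.70 (adjusted p = 0.101) in KO mice on water, which did not pass. Serine against water in KO mice gave 0.45 (adjusted p = 0.679). Fgl1, whose liver-made product hepassocin binds BMP6 and lowers hepcidin in mice, had 188 and 239 FPKM in KO mice on serine and 222 and 233 FPKM in KO mice on water, against 421 and 391 FPKM in control mice. All 4 KO libraries were below both control libraries. The changes of -0.94 (SE 0.15, adjusted p = 0.0503) in KO mice on serine and -0.83 (SE 0.15, adjusted p = 0.0596) in KO mice on water just missed the threshold. Id2, a relative of Id1, had 62.2 and 42.8 FPKM in KO mice on serine and 40.5 and 60.8 FPKM in KO mice on water, against 92.3 and 94.3 FPKM in control mice, a change of -0.90 (adjusted p = 0.116) in KO mice on water. Of the remaining genes, Hjv, Smad7, Atoh8 and Id3 were chosen for their role after their values were seen. Against control mice, Atoh8 changed by 0.15 in KO mice on serine and by 0.17 in KO mice on water. All KO libraries of Atoh8 were above both control libraries. Id3 changed by 0.30 in KO mice on serine and by 0.16 in KO mice on water, and both KO groups overlapped control mice. Neither Atoh8 nor Id3 passed the threshold in these comparisons. Hemojuvelin (Hjv), the BMP co-receptor, had 58.5 and 57.7 FPKM in KO mice on serine and 60.1 and 52.9 FPKM in KO mice on water, against 42.5 and 43.9 FPKM in control mice. Its changes of 0.42 (adjusted p = 0.106) in KO mice on serine and 0.38 (adjusted p = 0.156) in KO mice on water did not pass. The hemojuvelin-cleaving protease Tmprss6 stood at -0.29 (adjusted p = 0.250) in KO mice on serine and -0.50 (adjusted p = 0.121) in KO mice on water against control mice. Smad7, a feedback inhibitor that BMP signalling induces, stood at -0.44 (adjusted p = 0.291) in KO mice on serine and -0.36 (adjusted p = 0.424) in KO mice on water against control mice. The list's median change was 0.09 in KO mice on serine and 0.12 in KO mice on water against control mice, beside 0.16 and 0.08 over all genes. For KO mice on serine against KO mice on water limma called 0 of the 20, with 1 at an unadjusted p under 0.05 against 7.23% of all genes, and after Hfe the smallest p-values belonged to Tmprss6 (0.21) and Smad1 (-0.20), a BMP signal carrier.

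In the inflammatory and fasting list, 11 of 11 genes were tested. Ppargc1a, the coactivator of the fasting programme, had 7.86 and 11.2 FPKM in KO mice on serine and 9.81 and 9.54 FPKM in KO mice on water, against 3.43 and 2.47 FPKM in control mice. All KO libraries were above both control libraries, and Ppargc1a rose by 1.54 (SE 0.23, adjusted p = 0.0454) in KO mice on serine and by 1.57 (SE 0.23, adjusted p = 0.0393) in KO mice on water. It was the only gene of this list that passed. Creb3l3, the liver transcription factor named with it above and chosen for its role after its values were seen, had changes of 0.25 (adjusted p = 0.374) in KO mice on serine and 0.35 (adjusted p = 0.272) in KO mice on water. Stat3, chosen in the same way, had changes of 0.24 (adjusted p = 0.444) in KO mice on serine and 0.42 (adjusted p = 0.257) in KO mice on water. Against control mice 5 of the 11 genes had a positive change and 6 a negative one in each KO group. On the negative side, named after their values were seen, Socs3, a feedback inhibitor that STAT3 induces, had 3.77 and 1.00 FPKM in KO mice on serine and 2.69 and 2.23 FPKM in KO mice on water, against 5.66 and 5.23 FPKM in control mice. All KO libraries of Socs3 were below both control libraries, at -1.23 (adjusted p = 0.163) in KO mice on serine and -1.01 (adjusted p = 0.269) in KO mice on water. Hnf4a, a hepatocyte transcription factor, stood at -0.35 (adjusted p = 0.215) in KO mice on serine and -0.42 (adjusted p = 0.190) in KO mice on water, again with no overlap. Cebpa had 150 and 173 FPKM in KO mice on serine and 91.6 and 112 FPKM in KO mice on water, against 157 and 167 FPKM in control mice, and its change from control mice was -0.67 (adjusted p = 0.0809) in KO mice on water. Il1r1 stood at -0.80 (adjusted p = 0.0603) in KO mice on serine and -0.05 (adjusted p = 0.885) in KO mice on water against control mice. Between the KO groups limma called 0 of the 11, with 2 at an unadjusted p under 0.05, against 7.23% of all genes. They were the interleukin-1 receptor gene Il1r1, at -0.75, and the hepatocyte transcription factor gene Cebpa, at 0.67, both with an adjusted p of 0.639. The next smallest p-value was that of Jak1, a cytokine receptor kinase, at 0.18. Median changes of the list were -0.01 in KO mice on serine and -0.05 in KO mice on water against control mice.

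In the list of iron uptake, reduction and plasma carriers, 13 of 16 genes were tested. Heme oxygenase 1 (Hmox1), which frees iron from heme, had 17.7 and 23.8 FPKM in KO mice on serine and 21.7 and 21.0 FPKM in KO mice on water, against 9.26 and 7.35 FPKM in control mice. It rose by 1.27 (SE 0.19, adjusted p = 0.0478) in KO mice on serine and by 1.32 (SE 0.19, adjusted p = 0.0393) in KO mice on water, with all KO libraries above both control libraries, and was the only gene of this list that passed. Hmox1 is also high in macrophages, whose summed markers overlapped between the groups as given beside ferroportin. The calls on Hmox1 and Ppargc1a in KO mice on water were lost without any 1 of the libraries compared, and those on Hmox1, Ppargc1a and Hfe in KO mice on serine without any 1 library other than the first KO serine library. With median-of-ratios scaling the calls in KO mice on serine were lost for Hmox1 and Ppargc1a (adjusted p = 0.0682 each) and for Hfe (0.0714). With serine against water in KO mice limma called 0 of the 13, with 3 at an unadjusted p under 0.05, against 7.23% of all genes. Those were the importer Slc11a2 (0.60), the importer Slc39a14 (-0.59) and the ferrireductase Steap3 (0.39), with adjusted p of 0.675, 0.675 and 0.679.

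In the list of iron regulatory proteins, chaperones and ferritin turnover, limma called 0 of 9 genes in each comparison, with 1 at an unadjusted p under 0.05 in KO mice on serine against control mice, 3 in KO mice on water against control mice and 0 between the KO groups. Such a p was found for 25.7% of all genes in the first of these comparisons, 21.6% in the second and 7.23% between the KO groups. Ncoa4, the receptor that delivers ferritin to lysosomes, had 70.1 and 92.3 FPKM in KO mice on serine and 127 and 95.6 FPKM in KO mice on water, against 72.7 and 56.5 FPKM in control mice. KO mice on water were above both other groups, at 0.78 (adjusted p = 0.121) against control mice, and KO mice on serine stood at -0.45 (adjusted p = 0.720) against them. Fbxl5, the iron-sensing ligase subunit that removes iron regulatory protein 2 from iron-rich cells, stood at 0.74 (adjusted p = 0.0665) in KO mice on serine and 0.46 (adjusted p = 0.175) in KO mice on water against control mice. The iron chaperone gene Pcbp2 stood at 0.32 (adjusted p = 0.195) in KO mice on serine and 0.41 (adjusted p = 0.154) in KO mice on water against control mice, and Pcbp1 at 0.20 (adjusted p = 0.345) in KO mice on serine. In KO mice on serine against KO mice on water, Fbxl5 stood at 0.28 and Aco1, which encodes iron regulatory protein 1, at 0.21.

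In the list of mitochondrial iron and iron-sulfur cluster assembly, 19 of 20 genes were tested, and limma called 0 of them in each comparison, with 14 at an unadjusted p under 0.05 in KO mice on serine against control mice, 8 in KO mice on water against control mice and 1 between the KO groups. Over all genes, 25.7% in KO mice on serine and 21.6% in KO mice on water against control mice, and 7.23% between the KO groups, had such a p. All 19 had a positive change against control mice in both KO groups, and with median-of-ratios scaling 19 did in KO mice on serine and 17 in KO mice on water. Of all genes, 66.4% had a positive change in KO mice on serine and 59% in KO mice on water. The list's median was 0.60 in KO mice on serine and 0.38 in KO mice on water, beside 0.16 and 0.08 over all genes, and its libraries lay above both control libraries for 19 genes in KO mice on serine and 16 in KO mice on water. Over all genes, 41.5% lay wholly above in KO mice on serine and 34.4% in KO mice on water. Isca2, a late-acting assembly factor, had 62.7 and 70.9 FPKM in KO mice on serine and 55.1 and 57.8 FPKM in KO mice on water, against 40.0 FPKM in both control libraries, and its change of 0.73 (adjusted p = 0.0515) in KO mice on serine just missed the threshold. Lyrm4, a partner of the cysteine desulfurase, stood at 0.87 (adjusted p = 0.0674) in KO mice on serine and 0.80 (adjusted p = 0.0980) in KO mice on water. Bola3, which helps pass clusters to enzymes, stood at 0.72 (adjusted p = 0.0839) in KO mice on water, and Hspa9, the mitochondrial chaperone of cluster transfer, at 0.52 (adjusted p = 0.0787) in KO mice on serine. Between the KO groups the smallest p-values belonged to the ferredoxin Fdx2 (0.43, adjusted p = 0.675), to Isca2 (0.24) and to the transporter Abcb10 (0.28).

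**Figure D4:**
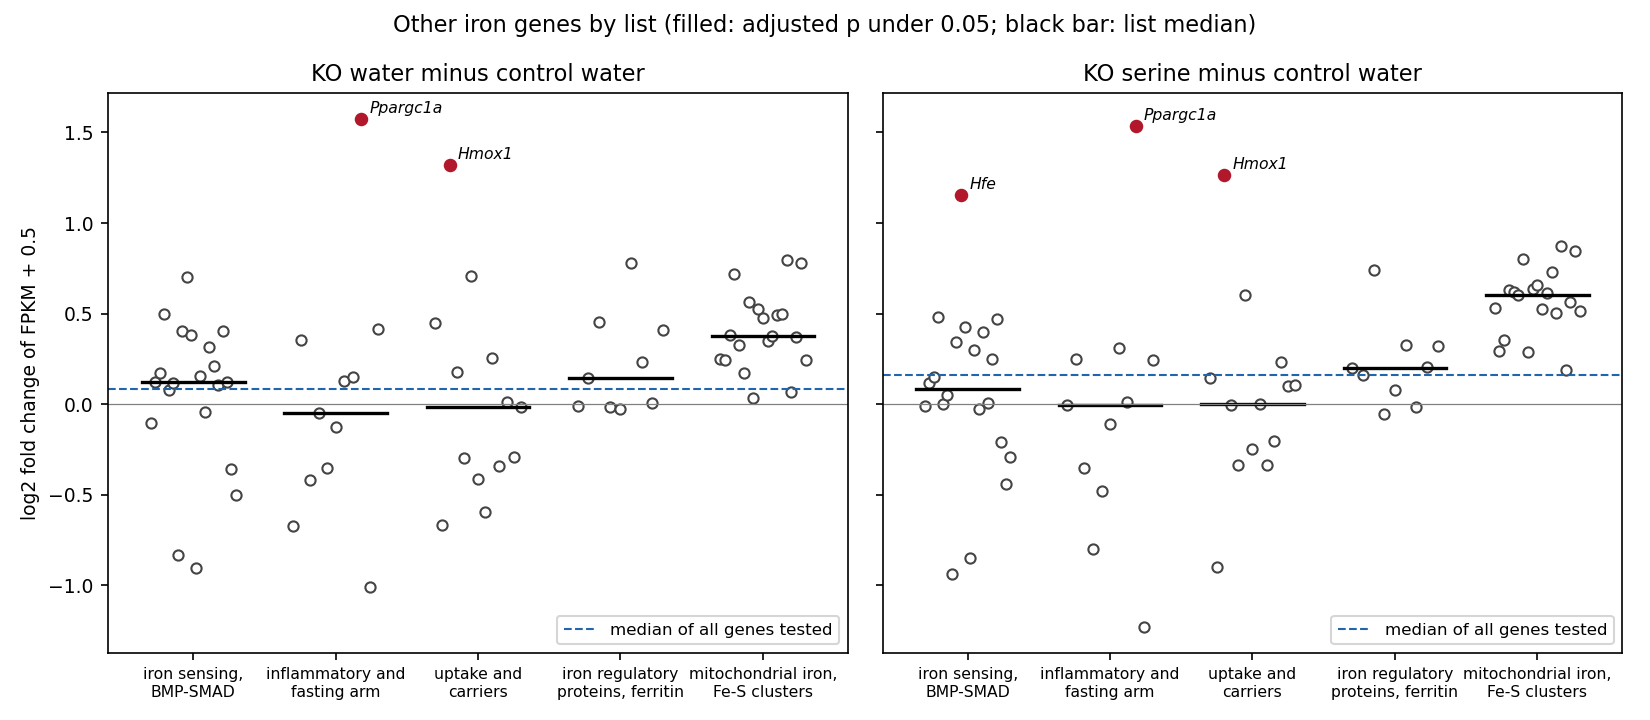
Change in log2(FPKM + 0.5) (vertical axis) of 72 further iron genes by list, for KO water minus control water (left) and KO serine minus control water (right); black bars are list medians, the dashed line is the median of all genes tested, and filled points passed an adjusted p of 0.05. Ppargc1a and Hmox1 are filled in both panels and Hfe in the right one, and all 19 mitochondrial genes lie above 0.

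The genes most like each hepcidin were found over the 6 libraries among 6957 genes, by the root mean square difference of log2 values centred on their own mean, where a smaller value is closer. For Hamp2 the nearest were Olig1 (0.11), Extl1 (0.29), AA986860 (0.34), Usp2 (0.34) and Car2 (0.39), beside a median of 1.22 over the genes compared. Olig1 had 10.6 and 14.6 FPKM in KO mice on serine and 13.3 and 8.07 FPKM in KO mice on water, against 1.18 and 1.76 FPKM in control mice. Hamp was 38th nearest to Hamp2, at 0.61. For Hamp the nearest were Slc6a8 (0.28), Eppk1 (0.29), Adora1 (0.31), Atg16l2 (0.33) and Gmnn (0.36), with Hamp2 at place 161, beside a median of 0.95. With 6 libraries in 3 groups, a gene higher in both KO groups by a like amount lies near, and these values are a description.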

How the data were processed

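RNA of pooled livers was sequenced in 6 libraries. Reads were aligned to GRCm39 with HISAT2 2.0.5 after bcl2fastq, per the submitters' processing notes. The authors deposited FPKM per gene. The counting tool, annotation release and strand setting were not given in the sources used here. Low values of single-exon genes of 500 to 1500 bases were compared with whole multiples of 1 fragment, with lengths shortened. They matched within 0.03 plus an allowance for the rounding of FPKM for 84.7% to 89.4% (17.3% to 19.0% by chance). The fragment total and the shortening were those with the largest excess of matches over chance, so the match share is a best value. With that total held, the shortening was searched again on single-exon genes near the hepcidin genes in length, with matches counted within 0.1. There 77.95% to 88.24% matched, again a best value. The estimated fragments and the full-length values rest on the total and on this second shortening.

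Genes with a mean FPKM of at least 1 (11134) were tested on log2(FPKM + 0.5) with limma 3.58.1 (R 4.3.3; lmFit, eBayes with trend) over all 6 libraries, with Benjamini-Hochberg adjustment, after a check on simulated data. A log2 change understates that of low genes. Residual degrees of freedom were 3 and prior ones 3.46.

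The members and lists were chosen with earlier results of these data known. Named were the members, each list's called genes (otherwise the 3 smallest p-values) and the 5 nearest genes by likeness among those with a mean FPKM of at least 5. Alternatives covered pseudocount, filter, scaling, trend, samples fitted, replicate block, left-out libraries and summed near-identical rows; rescaling the members to full length was chosen after seeing the data.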

Additional observations from a re-analysis of the deposited data

How the results depend on the processing

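Genes called numbered 135 for KO water against control (90 higher, 45 lower), 0 for KO serine against KO water and 131 for KO serine against control (95 higher, 36 lower). In the first comparison the count was 2 with no filter on low values, 226 scaled to TPM, 16 with no variance trend, 210 with only the 4 libraries compared, 4 with the replicate block and 7 to 215 with 1 library left out, and median-of-ratios scaling gave 60 higher and 48 lower. In the last it was 450 with the filter at 5 FPKM, 3 with no filter, 35 by median of ratios (15 higher, 20 lower), 449 scaled to TPM (389 higher, 60 lower), 8 with no trend, 4 with only the 4 libraries, 4 with the block and 4 to 203 with 1 left out. For KO serine against KO water it was 0 to 6 with 1 left out.

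Of the members, 1 was called in each comparison with control mice. For KO water against control it was 0 with no filter, 0 with no trend, 2 with only the 4 libraries, 0 with the replicate block and 0 to 2 with 1 left out, and for KO serine against control 0 under each of those 4 settings and 0 to 2 with 1 left out. For KO serine against KO water it was 0 under all 15 alternatives. Of the other iron genes, 2 were called for KO water against control (0 with no filter, no trend or the block, and 0 to 3 with 1 left out). For KO serine against control 3 were called (6 with the filter at 5 FPKM or scaled to TPM, 0 with no filter, median of ratios, no trend, only the 4 libraries or the block, and 0 to 4 with 1 left out).

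Of 30 member changes, 22 kept their sign under every alternative run. For KO water against control, Ftl1 took 0.065 scaled to TPM and -0.089 to 0.045 with 1 library left out, Bmp6 -0.35 to 0.047 and Id1 -0.11 to 0.49. For KO serine against KO water, Hamp took -1.27 to 0.31 with 1 left out, Hamp2 -0.051 to 0.49 with 1 left out and -0.46 summed with Hamp, and Tfr2 -0.13 to 0.0093. For KO serine against control, Tfrc took -0.0013 and Fth1 -0.029 by median of ratios, and Tfrc -0.12 to 0.46 with 1 left out. The cause was not tested.

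Replicate numbers gave little sign of pairing the libraries: the correlation of replicate deviations was 0.03 between KO water and control, -0.20 between KO water and KO serine and 0.04 between KO serine and control. With 2 libraries a group, this cannot exclude a pairing that touches part of the genes. With the replicate block, Hamp2 had an adjusted p of 0.0505 for KO water and 0.0759 for KO serine against control. A lone library left in a group is assumed to vary like the others. The lowest Hamp2 value rests on 82 estimated fragments, and each group has 2 libraries.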
